A study of Mus musculus with 2 samples.

Results

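The collagen chains were examined in brown preadipocytes before differentiation (D0) and in brown adipocytes 7 days after induction (D7). Collagens are extracellular matrix proteins in which chains wind around each other into a helical rod, and each chain is the product of its own gene. The chains were taken as every gene with values whose symbol has the form of a collagen chain (Col, a type number, a and a chain number). This gave 44 chains among 23361 genes with values. They were grouped as 11 fibrillar chains, 6 basement membrane chains (type IV) and 27 other chains.

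RNA-Seq was performed on 1 library per stage, so there was no replicate check, and a difference between the stages cannot be told apart from a difference between these libraries. According to the labels, both libraries were from primary brown preadipocytes of the interscapular brown adipose tissue of newborn C57BL/6 mice, grown in DMEM with 20% fetal bovine serum. From 4 days before induction, both cultures were kept in differentiation medium, which is DMEM with 10% serum, T3 at 1 nM and insulin at 0.1 μM. The D0 library is the culture at induction, so it had already been exposed to insulin and T3. The D7 library comes from cells that were also given indomethacin (0.125 mM), dexamethasone (2 μg/ml) and IBMX (0.5 mM) for 2 days, and then the medium without them. The methods of the study describe immortalization with large T and other concentrations of some additives, and which version applies to these libraries is not settled here. By the labels, insulin and T3 were thus present before both stages. The D7 cells alone had received indomethacin, dexamethasone and IBMX, and an effect of these agents on a collagen gene cannot be told apart from that of differentiation.

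Values are FPKM, fragments scaled by transcript length and library size, which allow the levels of different chains to be compared. A chain was called higher or lower when the ratio of D7 to D0 was at least 2.0 or at most 0.5. The fragments behind a value were recovered from the FPKM, whose denominator was 21471074 fragments for the D0 library and 18265365 for the D7 library. They give an exact 95% counting interval for each ratio, which covers counting error only and compares these 2 libraries. The adipocyte genes matched the labels. The preadipocyte and fibroblast markers were mixed, with 2 of 7 higher and 1 lower at D7, and are given below. All 8 adipocyte markers were higher at D7, and summed to 84.3 FPKM before and 18231 after differentiation. The brown adipocyte genes Ucp1, Cidea and Elovl3 were listed at 0 at D0 and at 4.57, 24.4 and 34.2 FPKM at D7. In such bulk samples, fewer cells of a type and less RNA per cell cannot be told apart.

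Fibrillar collagens (types I, II, III, V, XI, XXIV and XXVII) form the striated fibrils of connective tissue, and fibroblast-like preadipocytes are rich in them. Type IV collagen forms a network in the basement membrane, the thin sheet of matrix that surrounds each mature adipocyte. Other collagens sit on the fibrils, form beaded filaments or open lattices, anchor the basement membrane, or span the plasma membrane. New chains are hydroxylated and folded in the endoplasmic reticulum, trimmed outside the cell and crosslinked by lysyl oxidases.

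Summed over the 44 chains, the D0 library held 6772 FPKM of collagen and the D7 library 4126 (ratio 0.609). This was 1.32% of the FPKM of all genes at D0 and 0.790% at D7. The fibrillar chains summed to 5207 FPKM before and 2339.5 after differentiation (ratio 0.449). The type IV chains went the other way, from 643 to 956 FPKM (ratio 1.49). The sum of the other chains was 922 FPKM at D0 and 830.5 at D7 (ratio 0.900). The makeup of collagen mRNA differed accordingly, since the fibrillar share was 76.9% at D0 and 56.7% at D7, whereas the type IV share was 9.49% and 23.2%.

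**Figure D1:**
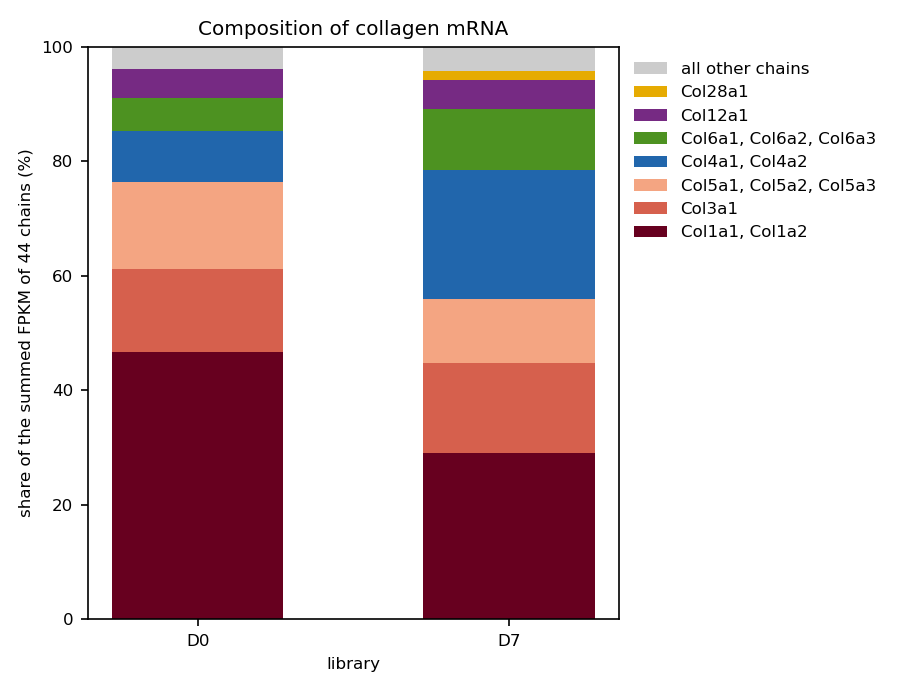
Share of the summed FPKM of the 44 collagen chains (percent, y axis) in the D0 and D7 libraries, with 1 library per bar and the chains stacked by collagen type. Col1a1 and Col1a2 together made up 46.7% at D0 and 29.0% at D7, and Col4a1 and Col4a2 made up 8.95% and 22.6%.

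Of the 41 chains above 0 in both libraries, 12 were called higher at D7 (29.3%, against 18.5% of the 14986 genes above 0 in both) and 8 were called lower (19.5%, against 13.2%). Most of the higher calls were of chains with very few fragments. Among the 23 chains with an FPKM of at least 1 in a library, 4 were higher (17.4%, against 15.6% of 11967 such genes), 6 were lower (26.1%, against 11.9%) and 13 were neither. The share of higher chains was thus close to that of all genes, and the share of lower chains was above it. The median ratio of these 23 chains was 0.671, against 0.981 for all such genes. The counting interval left out 1 for all 23 chains, as it did for 80.1% of 11833 genes, so at this depth it separates most expressed genes and says little about the collagens in particular. The 4 higher chains were Col28a1, Col5a3, Col15a1 and Col18a1, and none of them reached an FPKM of 10 at D0. The 6 lower chains were Col1a1, Col1a2, Col5a2, Col8a1, Col16a1 and Col7a1.

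**Figure D2:**
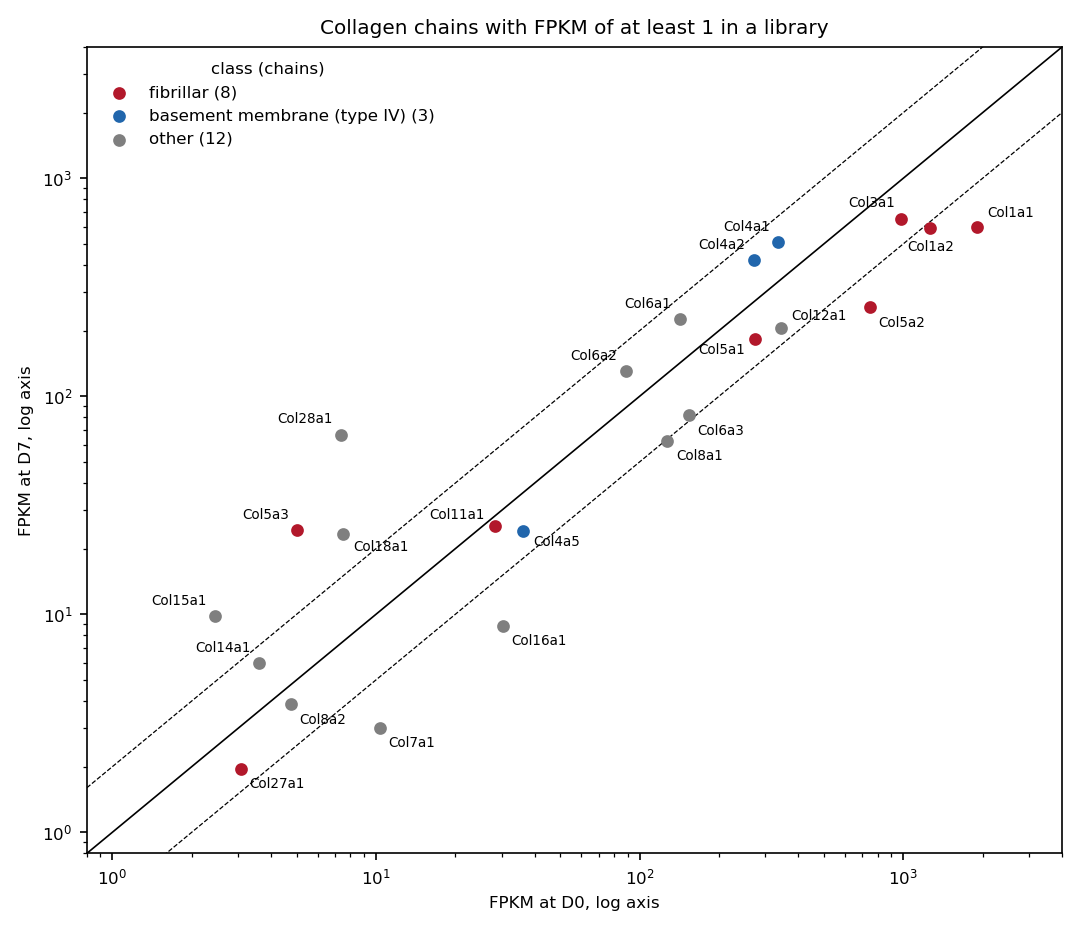
FPKM at D7 (y axis, log scale) against FPKM at D0 (x axis, log scale) for the 23 chains with an FPKM of at least 1 in a library, coloured by class, with 1 library per stage. The solid line marks equal values and the dashed lines a ratio of 2 or 0.5; the 4 higher chains lie above the upper dashed line, all with less than 10 FPKM at D0.

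Among the fibrillar chains, 1 of 11 was higher and 4 were lower, with a median log2 ratio of −0.59 (0.02 over all genes above 0 in both libraries). Of the 8 that reached an FPKM of 1, 1 was higher and 3 were lower. Among all genes above 0 in both libraries, 18.5% were higher and 13.2% lower. Among those reaching an FPKM of 1, the shares were 15.6% and 11.9%. Col1a1 and Col1a2 encode the chains of type I collagen, the main fibrillar collagen of connective tissue. Col1a1 (mm10, chr11:94936224-94953042, 51 exons) was at 1899.9 FPKM at D0 and 601 at D7, which is 3.16-fold lower (ratio 0.316, 95% counting interval 0.313 to 0.319). It ranked 23 among all genes at D0 and 139 at D7. Col1a2 (chr6:4504814-4541544) was at 1266 and 594 FPKM (ratio 0.469, 0.465 to 0.474). Both type I genes were lower, but not by the same factor: the level of Col1a1 relative to Col1a2 was 1.50 at D0 (counting interval 1.49 to 1.51) and 1.01 at D7 (1.00 to 1.02). Type I collagen is usually a heterotrimer with more of the Col1a1 product than of the Col1a2 product. Col3a1, the chain of type III collagen, which forms fibrils together with type I, was at 983 and 653 FPKM and stayed within 2-fold (ratio 0.665, 0.659 to 0.671). Its exons overlap those of Gm47302 on the same strand, so some of its reads are uncertain. Col1a1 was therefore 1.93 times the level of Col3a1 at D0 and 0.919 times at D7, where Col3a1 had the highest FPKM of all collagen chains. For Col1a1, 39.6 fragments were counted per base of transcript length at D0 and 10.6 at D7. The authors removed duplicate reads, and the part of this step in the ratio was not tested.

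Type V collagen starts and limits the growth of type I fibrils, and its 3 chains differed in their course. Col5a2 was at 746 FPKM at D0 and 256 at D7, 2.92-fold lower (ratio 0.343, 0.338 to 0.347). Col5a1 was at 274 and 183 FPKM (ratio 0.667, 0.657 to 0.677). Col5a3 (chr9:20770050-20815067, 67 exons), the less widespread chain, was instead higher, at 5.01 and 24.2 FPKM (ratio 4.83, 4.43 to 5.28), from 639 and 2628 fragments. It was the one fibrillar chain called higher. Relative to Col5a1, Col5a2 went from 2.72 to 1.40 and Col5a3 from 0.0183 to 0.132, so that Col5a3 remained the rarest type V chain in both libraries. The summed type V FPKM was 15.1% of collagen FPKM at D0 and 11.2% at D7.

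The remaining fibrillar chains were at lower levels. Col11a1, which can join type V chains in mixed fibrils, was at 28.4 and 25.3 FPKM (ratio 0.894, 0.855 to 0.935). Col27a1, a chain of developing cartilage, was at 3.08 and 1.95 FPKM (ratio 0.635, 0.545 to 0.738). Neither passed 2-fold. Col24a1 (0.616 and 0.614 FPKM) and Col11a2 (0.386 and 0.676 FPKM) stayed below an FPKM of 1 and within 2-fold. Col2a1, the main collagen of cartilage, went from 38 fragments to 1, or from 0.383 to 0.0115 FPKM (ratio 0.0301, 0.000764 to 0.183). Of the cartilage markers, Acan was listed at 0 in both libraries and Sox9 was at 5.99 and 2.98 FPKM. Comp went the other way, at 0.829 and 1.29 FPKM (ratio 1.56, 1.02 to 2.41), and Matn1 had 0 and 3 fragments. The summed FPKM of the 4 measured markers was 6.82 at D0 and 4.37 at D7, and their part in the Col2a1 values was not tested.

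**Figure D3:**
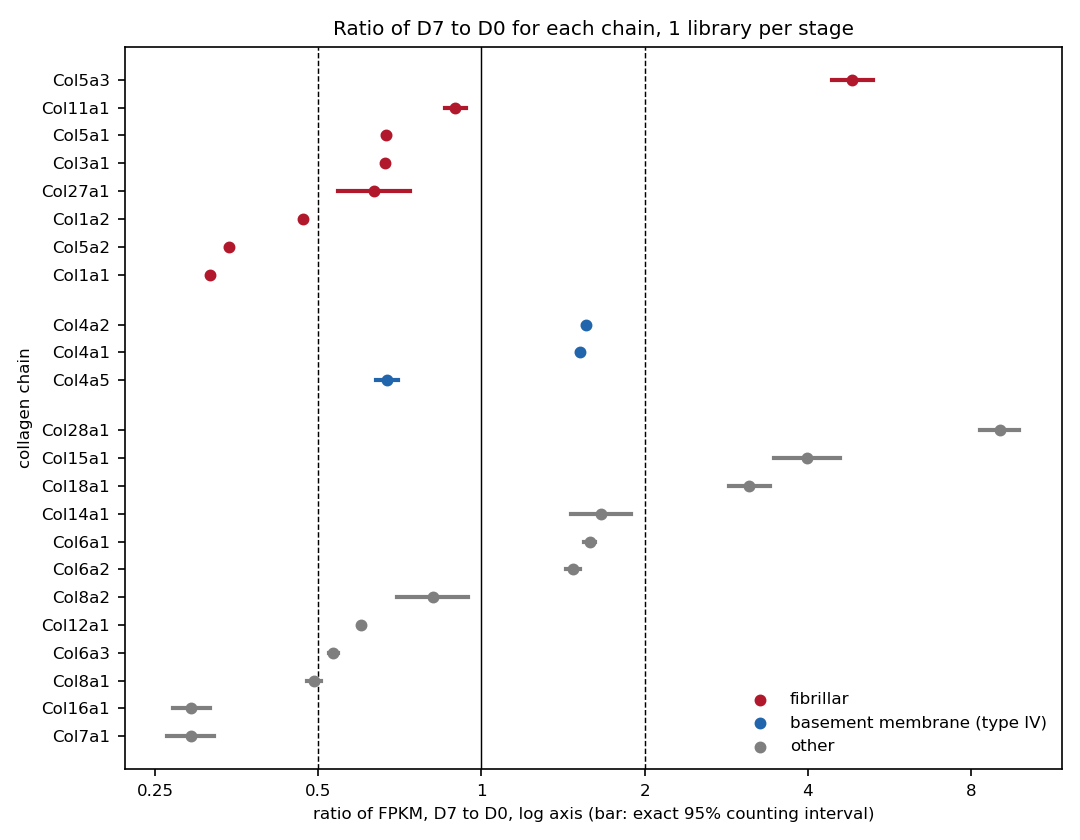
Ratio of FPKM at D7 to D0 (x axis, log scale) for the 23 chains with an FPKM of at least 1 in a library (y axis), grouped by class, with 1 library per stage. Bars are exact 95% counting intervals, hidden by the point where narrow, and dashed lines mark ratios of 0.5 and 2; Col5a3 at 4.83 stands apart from the other 7 fibrillar chains, which range from 0.316 to 0.894.

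The sequences upstream of fibrillar genes are shown because genes of this class differed in direction. Sequences and start sites are from RefSeq (GRCm38.p6), in which 35 of the 44 chains matched. No entry was matched for Col1a1, Col2a1, Col4a3, Col5a2, Col9a3, Col12a1, Col14a1, Col22a1 and Col26a1. Each sequence is the 250 bases before the annotated start, 5′ to 3′ on the strand of the gene, and capitals mark TATAAA (the TATA box), CCAAT (the CCAAT box) or GGGCGG (the GC box) read on either strand. Col3a1 (chr1:45311288-45311537, plus strand) and Col5a1 (chr2:27886175-27886424, plus strand) had nearly equal ratios of 0.665 and 0.667, and Col5a3 (chr9:20815068-20815317, minus strand) was the higher one.
Col3a1: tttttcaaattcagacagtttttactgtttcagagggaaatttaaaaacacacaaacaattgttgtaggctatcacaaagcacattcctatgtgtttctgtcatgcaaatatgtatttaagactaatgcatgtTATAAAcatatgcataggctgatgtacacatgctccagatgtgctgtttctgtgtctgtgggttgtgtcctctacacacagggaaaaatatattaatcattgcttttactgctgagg
Col5a1: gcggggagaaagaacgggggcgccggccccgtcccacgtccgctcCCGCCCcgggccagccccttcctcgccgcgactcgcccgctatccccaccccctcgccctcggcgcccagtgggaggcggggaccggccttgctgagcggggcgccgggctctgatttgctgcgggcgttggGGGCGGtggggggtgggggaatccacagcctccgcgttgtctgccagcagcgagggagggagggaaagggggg
Col5a3: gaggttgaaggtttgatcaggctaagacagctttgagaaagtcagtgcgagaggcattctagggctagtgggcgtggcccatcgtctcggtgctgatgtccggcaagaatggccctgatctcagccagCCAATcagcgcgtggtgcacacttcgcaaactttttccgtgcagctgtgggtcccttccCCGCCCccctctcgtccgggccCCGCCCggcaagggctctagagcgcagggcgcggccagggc
The Col3a1 window held TATAAA and 35.2% G and C. The Col5a1 window held GGGCGG on both strands and 76.4% G and C, and that of Col5a3 held CCAAT and GGGCGG (as CCGCCC) with 62.8% G and C. The windows of Col3a1 and Col5a1 were thus unlike, and a link between windows and ratios was not tested. Over all chains, TATAAA was found in 5 of 35 windows (12.97% of the 27025 genes in the table), CCAAT in 12 (34.5%) and GGGCGG in 21, which is 60.0% against 32.9% of all genes. Among the 8 fibrillar windows these counts were 2, 3 and 6. For a chain the window nearest its locus was read, and for the share of all genes the first window listed per gene. The shares thus come from unlike selections. A match to a motif describes the letters only and is not a binding site.

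Type IV collagen of most basement membranes is built from the Col4a1 and Col4a2 products, and the other 4 chains are restricted to particular tissues such as kidney. Col4a1 was at 336 FPKM at D0 and 510 at D7 (ratio 1.52, 1.50 to 1.54), and Col4a2 was at 270 and 421 FPKM (ratio 1.56, 1.54 to 1.58). Neither passed 2-fold, while their place among the collagens changed. The level of Col4a1 relative to Col1a1 was 0.177 at D0 and 0.849 at D7. The rank among all genes was 226 and then 167 for Col4a1, and 281 and then 205 for Col4a2. The proportion of Col4a1 to Col4a2 was 1.24 at D0 (1.22 to 1.26) and 1.21 at D7 (1.20 to 1.23), so the partner chains kept nearly the same proportion.

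Col4a5 went against these partners, at 36.0 FPKM at D0 and 24.2 at D7 (ratio 0.671, 0.640 to 0.702). Relative to Col4a1, it was at 0.107 and then at 0.0474. Its partner Col4a6 was at 0.698 and 0.406 FPKM (ratio 0.582, 0.403 to 0.831), from 97 and 48 fragments. Col4a4 had 8 and 5 fragments. Col4a3, which had 3 and 9 fragments, was the 1 type IV chain with a ratio above 2 (3.53), with an interval of 0.880 to 20.3 that holds 1. None of the 6 type IV chains was called lower, and of the 3 with an FPKM of at least 1 none was called in either direction. Among all genes above 0 in both libraries, 13.2% were lower. At an FPKM of at least 1, 15.6% of all genes were higher and 11.9% lower. The median log2 ratio of the 6 chains was 0.13. Endothelial cells also make type IV collagen. Of their 8 markers, which summed to 1.62 FPKM at D0 and 2.69 at D7, Tie1 and Cldn5 were listed at 0 in both libraries and Pecam1 had 1 fragment in each. Tek was called higher, at 0.520 and 1.62 FPKM (ratio 3.11, 2.23 to 4.39), and so was Kdr, at 0.3003 and 0.6546 FPKM (ratio 2.18, 1.45 to 3.36). Cdh5 was called lower, from 13 fragments to 2. The part of endothelial cells in the type IV values was not tested.

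The type IV genes lie in head-to-head pairs. Col4a1 (minus strand) and Col4a2 (plus strand) lie on chromosome 8 (mm10, chr8:11198423-11312826 and chr8:11312805-11449287), and their annotated starts are 21 bp apart. Their ratios were 1.52 and 1.56. Because these genes share a start region and had like ratios, 30 bases around the CCAAT letters upstream of each start are shown on the strand of each gene, with the CCAAT letters (or ATTGG, the same letters on the opposite strand) in capitals.
Col4a1, chr8:11312954-11312983, minus strand: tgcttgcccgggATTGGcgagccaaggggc
Col4a2, chr8:11312761-11312790, plus strand: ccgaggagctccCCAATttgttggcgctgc
The capitals begin 145 bases before the start of Col4a1 and 32 bases before that of Col4a2. Because the ends of these genes overlap, each printed stretch also lies inside the partner gene, downstream of the partner's start. The bases read upstream of each start held exon sequence of the partner. Whether the printed bases belong to those exons was not tested. On the X chromosome, Col4a6 and Col4a5 start 1.309 kb apart and had ratios of 0.582 and 0.671, although Col4a5 was 51.6 times the level of Col4a6 at D0 and 59.5 times at D7. Col4a4 and Col4a3 on chromosome 1 start 0.072 kb apart, and both had too few fragments to compare. Of the neighbours in other arrangements with an FPKM of at least 1, Col3a1 and Col5a2 lie tail to tail on chromosome 1, 24.61 kb apart, with ratios of 0.665 and 0.343. Col6a2 and Col6a1 on chromosome 10, which lie in the same direction, had ratios of 1.48 and 1.59. No test was made of neighbouring genes, and reads from overlapping ends of Col4a1 and Col4a2 are uncertain since the use of strand in counting is not stated.

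**Figure D4:**
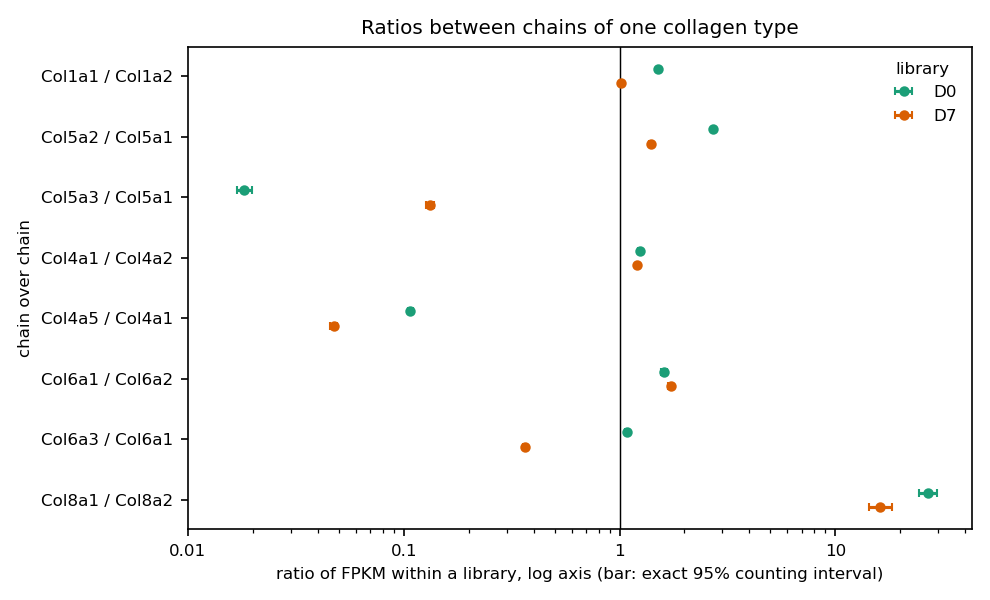
Ratio of the FPKM of one chain to that of another within the same library (x axis, log scale) at D0 and D7, with 1 library per stage and exact 95% counting intervals as bars. Col4a1 over Col4a2 was 1.24 and 1.21, whereas Col6a3 over Col6a1 was 1.08 and 0.364 and Col5a3 over Col5a1 was 0.0183 and 0.132.

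Of the 27 other chains, 24 were above 0 in both libraries, 10 of which were higher and 4 lower, with a median log2 ratio of 0.66. Among all genes above 0 in both, 18.5% were higher and 13.2% lower. Of the 12 with an FPKM of at least 1, 3 were higher and 3 were lower, and the median ratio was 1.10. The shares of all genes at that level were 15.6% higher and 11.9% lower. Most of the higher calls therefore came from chains at very low levels.

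Type VI collagen forms beaded filaments near cells and is abundant in adipose tissue. Col6a1 was at 142 FPKM at D0 and 225 at D7 (ratio 1.59, 1.55 to 1.62), and Col6a2 was at 88.4 and 130.5 FPKM (ratio 1.48, 1.43 to 1.52). Col6a3, the large chain whose C-terminal fragment is endotrophin, was at 153 and 81.8 FPKM (ratio 0.533, 0.523 to 0.543). All 3 stayed within 2-fold, but Col6a3 went against its partners. The level of Col6a3 relative to Col6a1 was 1.08 at D0 (1.06 to 1.10) and 0.364 at D7 (0.356 to 0.372), while Col6a1 relative to Col6a2 was 1.60 and 1.72. Col6a1 and Col6a2 lie in the same direction on chromosome 10, 85.16 kb apart, and Col6a3 is on chromosome 1. The alternative chains Col6a4, Col6a5 and Col6a6 had 4 to 10 fragments in each library.

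Col28a1, a beaded filament collagen related to type VI and known from peripheral nerve, had the largest ratio of the chains with an FPKM of at least 1. The gene has 35 annotated exons (chr6:7997808-8192617). It was at 7.37 FPKM at D0 and 66.6 at D7, 9.04-fold higher (8.32 to 9.83), from 641 and 4926 fragments. Its rank among all genes was 7065 at D0 and 1308 at D7, and its share of collagen FPKM was 0.109% and 1.61%. All 4 Schwann cell markers were also higher at D7, summing to 3.95 and 9.82 FPKM. They ranged from 0.103 to 2.77 FPKM at D0 and from 0.212 to 5.66 at D7, with none at 0. Sox10, one of these markers, was at 0.588 and 2.16 FPKM, from 32 and 100 fragments. The part of Schwann cells in the Col28a1 values was not tested. The 250 bases before the start of Col28a1 (chr6:8192618-8192867, minus strand, RefSeq GRCm38.p6), shown because this gene changed most, held none of the 3 motifs and 40.4% G and C.
Col28a1: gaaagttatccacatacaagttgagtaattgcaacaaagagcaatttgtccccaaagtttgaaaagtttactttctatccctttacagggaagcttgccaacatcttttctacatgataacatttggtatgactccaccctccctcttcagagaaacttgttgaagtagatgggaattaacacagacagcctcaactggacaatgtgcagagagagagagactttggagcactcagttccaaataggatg

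Types XV and XVIII are basement membrane zone proteoglycans whose C-terminal ends give endostatin-like fragments. Col18a1 was at 7.48 FPKM at D0 and 23.4 at D7 (ratio 3.12, 2.87 to 3.40), and Col15a1 was at 2.46 and 9.77 FPKM (ratio 3.98, 3.47 to 4.59). Both were called higher, and their summed FPKM was 9.94 at D0 and 33.1 at D7. Counted with type IV, they raise the number of higher basement membrane chains to 3 of 8, or 2 of 5 at an FPKM of at least 1. The shares of all genes called higher were 18.5% and 15.6%. Besides these 2 chains, the count holds only Col4a3, which had 3 and 9 fragments and an interval that holds 1. They remained far below Col4a1. Of the endothelial markers, Tek and Kdr were higher and Cdh5 was lower (13 and 2 fragments). Tie1 and Cldn5 were listed at 0 in both libraries. The part of endothelial cells was not tested for these genes either.

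Fibril-associated collagens coat fibrils and link them to the surrounding matrix. Col12a1 was the most abundant, at 344 FPKM at D0 and 207 at D7 (ratio 0.601, 0.594 to 0.608), and made up 5.08% and 5.01% of collagen FPKM. Col16a1 was at 30.3 and 8.83 FPKM and was called lower (ratio 0.292, 0.270 to 0.315). Col14a1, which is related to Col12a1, was at 3.60 and 5.98 FPKM (ratio 1.66, 1.46 to 1.88). The level of Col12a1 relative to Col14a1 was thus 95.6 at D0 and 34.6 at D7. Col8a1, which forms hexagonal lattices with Col8a2, was at 127 and 62.6 FPKM, just past the threshold (ratio 0.491, 0.476 to 0.507), while Col8a2 was at 4.76 and 3.87 FPKM (ratio 0.813, 0.698 to 0.946). Col7a1, the anchoring fibril chain of skin, was at 10.3 and 3.01 FPKM and was called lower (ratio 0.291, 0.263 to 0.321).

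The other 15 chains of this class stayed under an FPKM of 1 in both libraries. Of the 12 that were above 0 in both, 7 were called higher and 1, Col17a1, was called lower. Of all 3019 genes above 0 in both libraries and under an FPKM of 1 in both, 29.7% were called higher and 18.2% lower. Col9a1 and Col26a1 were listed at 0 in both, and Col25a1 had 1 fragment at D0 and 0 at D7. The highest value among them was 0.958 FPKM, for the transmembrane collagen Col23a1 at D7 (0.255 at D0, 30 and 96 fragments, ratio 3.76, 2.48 to 5.88). Col20a1 had 7 and 51 fragments (ratio 8.23, 3.87 to 22.4), and it overlaps an annotated gene on the same strand. Col10a1, the chain of hypertrophic cartilage, had 3 and 14 fragments (ratio 5.49, 1.53 to 29.8) and lies within Nt5dc1 on the opposite strand, so that its reads are uncertain. For Col9a2 there were 7 and 17 fragments (ratio 2.69, 1.13 to 8.15). Col13a1, Col17a1, Col19a1, Col22a1, Col6a4, Col6a5, Col6a6 and Col9a3 had between 1 and 14 fragments in each library, and their intervals all held 1. For these 8 chains no difference between the libraries was detectable at this depth.

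The genes that modify, fold, export, trim and crosslink collagen were read beside the chains, from lists of known members. The share of all genes with an FPKM of at least 1 that were called is 15.6% higher and 11.9% lower, as above. Among the hydroxylases and glycosyltransferases, 0 of 13 were higher and 5 were lower, with a median ratio over the list of 0.541. P4hb, the subunit common to prolyl 4-hydroxylases, was at 595 FPKM at D0 and 297 at D7, at the threshold (ratio 0.499, 0.489 to 0.509). The catalytic subunit P4ha3 was at 34.1 and 12.4 FPKM (ratio 0.364). Lepre1 (P3h1), a prolyl 3-hydroxylase, was at 53.2 and 23.7 FPKM (ratio 0.446), and its relative Leprel4 (P3h4) was at 80.8 and 33.4 FPKM (ratio 0.414). The collagen galactosyltransferase Glt25d1 (Colgalt1) was at 102 and 46.1 FPKM (ratio 0.453). These 5 genes were thus lower in the library in which the type I chains were lower. The rest of the list at an FPKM of at least 1 stayed within 2-fold, and not all were lower. Leprel1 (P3h2) was at 1.62 and 2.89 FPKM (ratio 1.78, 1.39 to 2.30).

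Among the chaperones and export factors, 1 of 11 was higher and 6 were lower, with a median ratio of 0.496. Serpinh1 (HSP47), the collagen-specific chaperone, was at 996 FPKM at D0 and 441 at D7 (ratio 0.443, 0.435 to 0.451). Fkbp10, a prolyl isomerase that folds type I procollagen, was at 145 and 35.6 FPKM (ratio 0.246, 0.233 to 0.260), and its relative Fkbp14 was at 41.6 and 17.9 FPKM. The vesicle coat genes Sec23a (61.9 and 30.7 FPKM, ratio 0.496, 0.472 to 0.521) and Sec24d (69.5 and 32.4 FPKM) were lower, the former at the threshold. Creb3l1, a factor bound to the endoplasmic reticulum that activates Col1a1, was at 40.9 and 18.1 FPKM (ratio 0.442). Tmem38b, an ion channel of the endoplasmic reticulum, was the one higher gene, at 8.73 and 23.8 FPKM (ratio 2.73, 2.46 to 3.03).

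Among the procollagen processing genes, 1 of 6 with an FPKM of at least 1 was higher and 2 were lower. Adamts2, which removes the N-propeptide of fibrillar procollagens, was at 19.3 FPKM at D0 and 60.2 at D7 (ratio 3.12, 2.99 to 3.26). Adamts14, an enzyme of the same kind, was at 6.77 and 1.50 FPKM (ratio 0.221, 0.183 to 0.266), so these enzymes were called in opposite directions. Tll1, a C-propeptidase, was at 13.7 and 1.57 FPKM (ratio 0.114, 0.0947 to 0.137). Bmp1 and Pcolce, named after their values were seen because they lead this list, stayed within 2-fold. Bmp1 was at 136 and 70.4 FPKM (ratio 0.519), and Pcolce at 573 and 392 FPKM (ratio 0.684). Of the 5 lysyl oxidases, 3 were lower and none was higher, with a median ratio of 0.347. Loxl2 was at 265 and 91.9 FPKM (ratio 0.347), Loxl3 at 75.6 and 23.4 FPKM (ratio 0.309) and Loxl4 at 15.8 and 4.19 FPKM (ratio 0.265). Lox, named after its values were seen because it dominates the list, was at 950.0 and 1206 FPKM (ratio 1.27, 1.26 to 1.28). The summed FPKM of the list was therefore nearly the same at both stages (1475 and 1431), while most of its members were lower.

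Among the collagen receptors, 1 of 7 with an FPKM of at least 1 was higher and 2 were lower. Itga11, an integrin subunit that binds fibrillar collagen, was at 137 FPKM at D0 and 53.1 at D7 (ratio 0.388, 0.375 to 0.401). Mrc2 (Endo180), which takes up collagen for degradation, was at 138 and 49.5 FPKM (ratio 0.358, 0.346 to 0.369). Itga10, which was higher, was at only 0.421 and 1.15 FPKM (ratio 2.73, 1.90 to 3.98). Over these lists, 18 of the 42 genes with an FPKM of at least 1 were lower and 3 were higher. Of all genes at that level, 11.9% were lower and 15.6% higher.

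**Figure D5:**
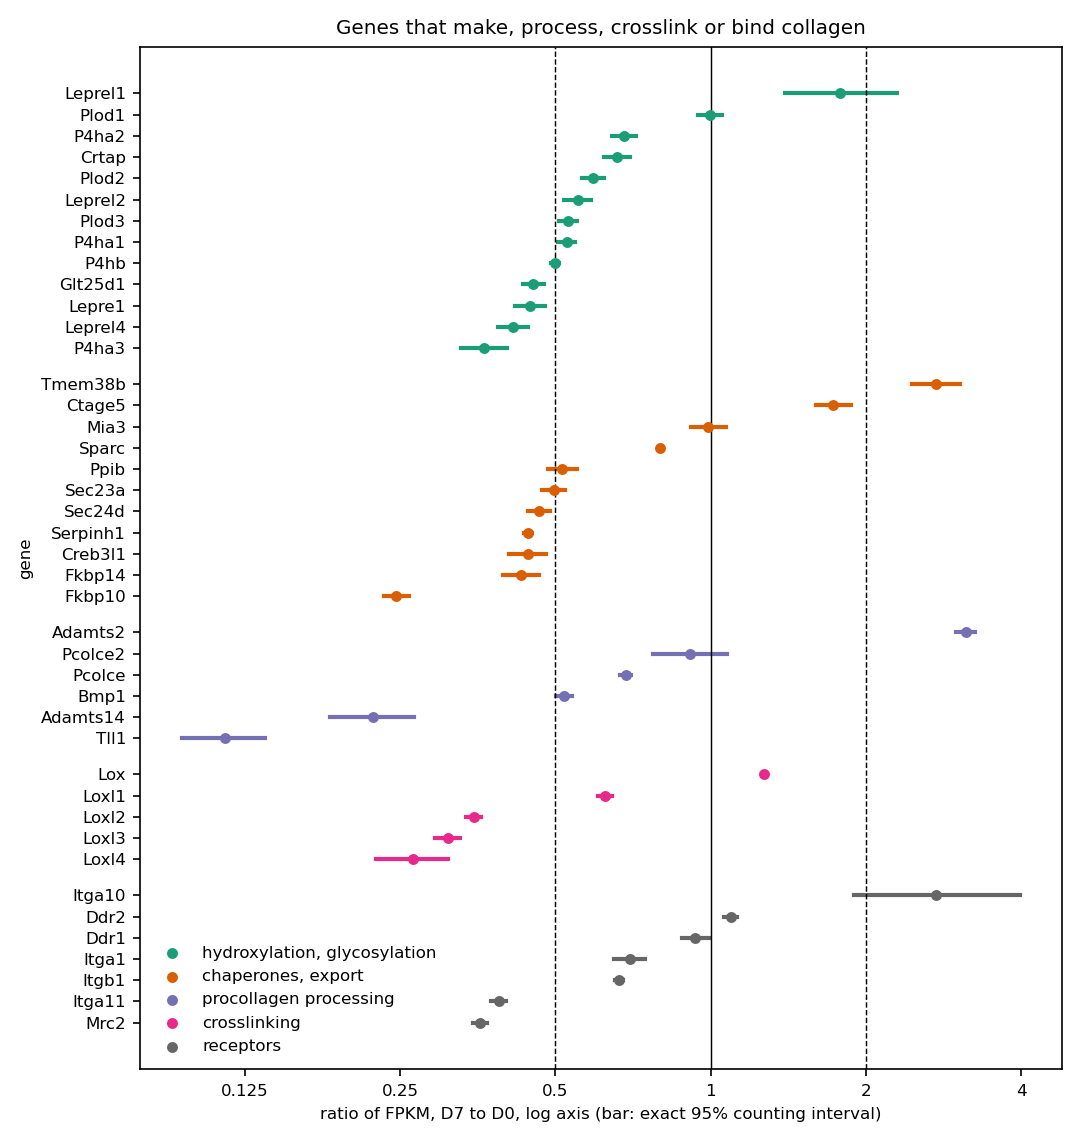
Ratio of FPKM at D7 to D0 (x axis, log scale) for the listed genes that make, process, crosslink or bind collagen and reach an FPKM of 1 in a library (y axis, coloured by list), with 1 library per stage and exact 95% counting intervals as bars. Dashed lines mark ratios of 0.5 and 2; Tmem38b, Adamts2 and Itga10 lie above 2, and most of the others lie below 1.

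Markers of other cells also differed between the libraries. Of the 7 mural and smooth muscle markers, 3 were lower and 2 higher, with summed FPKM of 2343 at D0 and 399.6 at D7. Most of this was Acta2, at 2164 and 319 FPKM, which is also made by myofibroblasts, and Pdgfrb was at 114 and 38.9 FPKM. The 2 higher mural markers were at low levels: Rgs5 at 0.571 and 1.65 FPKM (ratio 2.89) and Kcnj8 at 0.417 and 0.928 FPKM (ratio 2.22). Of the 7 preadipocyte and fibroblast markers, 2 were higher and 1 was lower (summed 1261 and 818 FPKM). The lower one was Thy1, at 657 and 308 FPKM (ratio 0.469), and the higher ones were Cd34, at 1.85 and 15.4 FPKM (ratio 8.29), and Dlk1, at 3.57 and 38.5 FPKM (ratio 10.8). Pdgfra was at 52.1 and 50.7 FPKM. All 8 macrophage markers were higher, with summed FPKM of 149.6 and 573. The 5 skeletal muscle markers summed to 51.2 and 4.81 FPKM. Most of the D0 sum was 1 gene, Acta1, at 45.4 and 1.73 FPKM. Des was at 5.74 and 3.03 FPKM, and Myod1 was listed at 0 in both. Myog had 0 and 1 fragments, and Myh3 had 2 and 1. The part of these cells in the collagen values was not tested.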

How the data were processed

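RNA-Seq values of 1 library of brown preadipocytes (D0) and 1 of brown adipocytes (D7) were analysed. After removing duplicate and rRNA reads and aligning to mm10, the authors deposited a table of FPKM, with 1 value for each gene in each library. The methods name SOAP2 as the aligner and the submitters' processing notes name Bowtie2, and the use of strand in counting is not stated. Of 27324 genes listed, 23361 held values, which were used as deposited, with no rescaling between libraries.

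The members and lists were chosen with earlier results of these data known. Every collagen chain was accounted for. Chains with FPKM of at least 1 in a library were given with both values, and listed genes were named where they also passed 2.0-fold. Of the listed genes within 2-fold, Lox, Bmp1, Pcolce and Leprel1 were named as well, after their values were seen. With 1 library per stage no test across samples was made.

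Fragments were recovered from 600 single-exon genes (GENCODE M21, GRCm38), with 179 bp at D0 and 182 bp at D7 taken from each length. Of the values of up to 20 fragments, 79 of 79 and 90 of 90 lay within 0.1 of a whole number, against 36.5% and 37.5% with lengths shuffled. A fragment in a 2 kb transcript was worth 0.0256 FPKM at D0 and 0.0301 at D7. Intervals are exact Clopper-Pearson intervals (95%) of fragments, and exon overlaps with other genes were found for 3 chains on the same strand and 10 on the other. For 5 chains (Col12a1, Col6a3, Col22a1, Col25a1 and Col26a1) the longest coding transcript gave the length. The scripts were tested on simulated data. The alternatives were pseudocounts of 0.1 and 1, TPM, median, upper quartile and trimmed mean scaling, a floor of 0.01 followed by scaling to each library's median, filters at FPKM of 1 and at 10 fragments, a 4-fold threshold, a counting interval rule, and another grouping of types XV and XVIII. Software was scipy 1.17.1, numpy 2.4.6, matplotlib 3.10.9 and pandas 2.3.3 under Python 3.11.15.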

Additional observations from a re-analysis of the deposited data

How the results depend on the processing

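The number of chains called higher depended on how low values were treated. It was 12 over chains above 0 in both libraries, 7 with a pseudocount of 0.1, and 4 each with a pseudocount of 1, at FPKM of at least 1 and at 4-fold. The number called lower was 8, and it was 13 with a floor of 0.01 and division by the library median, and 1 at 4-fold, where the fibrillar count of 4 also became 1. With FPKM of at least 1 the split was 4 higher and 6 lower. That floor with the library median multiplies every ratio by 0.783, a shift of −0.35 on the log2 scale. The basement membrane count of 1 higher became 0 with either pseudocount, at FPKM of at least 1, at 4-fold and where the counting interval had to leave out 1, and became 3 with types XV and XVIII included. The basement membrane median log2 ratio of 0.13 became −0.23 with the floor and library median, and the ratio of summed collagen FPKM of 0.609 became 0.477. With the other scalings, factors were 0.969 to 0.991. Of the 23 chains with FPKM of at least 1, 20 kept their side of 2-fold in all 7 settings for single genes, and Col27a1 (0.497), Col12a1 (0.471) and Col6a3 (0.418) passed it with the floor and library median. All 23 kept their direction in these settings. With the longest coding transcript, the fragments of Col18a1, Col14a1 and Col6a2 were 870, 485 and 8495 at D0 in place of 741, 425 and 7158. No paired analysis was possible because there was 1 library per stage, and no library could be left out. At this depth, chains with fewer than 10 fragments in both libraries had counting intervals that held 1.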

Other observations

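Exon numbers varied between the classes. The fibrillar genes had 51 to 67 annotated exons, and the lattice-forming Col8a1 and Col8a2 had 4 each and Col10a1 had 3. Col6a1 and Col18a1 lie in the same direction on chromosome 10, 326 kb apart, with ratios of 1.59 and 3.12. Of the further chains under an FPKM of 1, Col9a3 and Col20a1 lie 364.3 kb apart on chromosome 2, with 14 and 8 fragments for Col9a3 and 7 and 51 for Col20a1.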
